A study of Mus musculus with 6 samples.

Results

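The immediate-early genes examined here were Egr1, Egr2, Egr3, Ier2, Ier3, Ier5, Csrnp1 and Sik1, 8 genes chosen by name out of 27179 genes in the count table of an RNA-Seq experiment on LT-HSCs. LT-HSCs are the long-term hematopoietic stem cells of the BM, sorted here as CD150+CD48-LSK cells. The experiment compared 3 libraries from WT mice with 3 libraries from Foxm1 heterozygous (Foxm1 HET) mice, all C57BL/6 and 8 weeks of age, to learn how partial loss of the transcription factor Foxm1 alters stem cells. The titles of the Foxm1 HET libraries name a floxed Foxm1 allele next to a normal allele and no Cre, whereas their genotype label says Foxm1 heterozygous. In other experiments of the paper, mice with that floxed allele and no Cre are the WT controls, so the titles match the name of its control genotype. Whether the sequenced WT mice carried a floxed allele is not stated in the RNA-Seq section. The groups here follow the genotype labels. In the study's methods, Foxm1 HET mice carry Tie2-Cre, a driver active in blood and endothelial cells, while Mx1-Cre was used in other experiments, and the driver of the sequenced mice is not named in the RNA-Seq section.

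Immediate-early genes are transcribed within minutes of a stimulus, because the factors that switch them on are already present in the cell. ERK signaling acts on serum response factor (SRF) and its ELK partners at a DNA element called the CArG box, and cAMP or stress signaling acts on CREB at cAMP response elements. The Egr genes encode zinc finger transcription factors that pass the signal to later genes, and Egr1 is known in HSCs for holding them in quiescence and in the niche. Ier2, Ier3 and Ier5 encode small proteins without a zinc finger, Csrnp1 encodes a cysteine- and serine-rich nuclear protein, and Sik1 encodes a kinase that restrains the CREB coactivators.

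RefSeq promoter windows (build GRCm38.p6) were matched for 4 of the 8 genes, Egr2, Ier3, Ier5 and Csrnp1. The windows of Egr2, Ier3 and Ier5 ended at the first base of the gene in the count table and are shown because Egr2 and Ier3 had the largest estimated differences between genotypes, in opposite directions, and Ier5 belongs to the same Ier group as Ier3. Each sequence gives the 250 bases before the transcription start, 5′ to 3′ on the strand of the gene, for Egr2 at chr10:67537619-67537868 (plus strand), Ier3 at chr17:35821463-35821712 (plus strand) and Ier5 at chr1:155099637-155099886 (minus strand). Capitals mark motif matches on either strand.
Egr2: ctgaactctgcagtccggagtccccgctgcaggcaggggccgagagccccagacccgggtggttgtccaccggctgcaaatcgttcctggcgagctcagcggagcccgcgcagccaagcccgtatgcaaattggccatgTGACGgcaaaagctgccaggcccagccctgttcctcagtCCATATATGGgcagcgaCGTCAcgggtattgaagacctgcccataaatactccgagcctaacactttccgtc
Ier3: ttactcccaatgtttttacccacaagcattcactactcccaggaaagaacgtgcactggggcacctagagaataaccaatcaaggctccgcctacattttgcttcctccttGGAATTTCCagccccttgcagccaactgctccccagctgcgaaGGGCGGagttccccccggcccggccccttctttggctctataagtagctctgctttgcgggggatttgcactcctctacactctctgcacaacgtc
Ier5: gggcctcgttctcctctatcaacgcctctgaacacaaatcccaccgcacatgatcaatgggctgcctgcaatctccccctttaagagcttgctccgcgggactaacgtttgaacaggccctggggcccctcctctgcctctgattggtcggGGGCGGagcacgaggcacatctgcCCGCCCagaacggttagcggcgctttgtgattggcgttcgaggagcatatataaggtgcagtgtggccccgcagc
The Egr2 window held a CArG box from 72 to 63 bases before the start and the cAMP response half-site TGACG starting 111 and 55 bases before it. A CArG box was present in 1.47% of the 32817 RefSeq windows of the same length, and TGACG in 17.7%. The Ier3 window held GGAATTTCC, a form of the NF-kB site, from 139 to 131 bases before the start, and GGGCGG, the core of the GC box bound by Sp1, from 96 to 91 bases before it. GGAATTTCC was present in 0.286% of windows and GGGCGG in 32.7%. The Ier5 window held GGGCGG starting 99 and 75 bases before the start and no match to the CArG box. Also searched were TGANTCA (6.75% of windows), CCGGAA (12.0%), GTGGGCG (7.02%), the forkhead core TAAACA (12.0%) and TATAAA (12.4%), and these letters are not in the 3 windows shown. GTGGGCG can overlap GGGCGG. The matches are descriptions of sequence and not measured binding.

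The libraries held 14573002 to 25798509 counted reads, and the genes with at least 10 reads numbered 4467 to 9894 per library. Foxm1 HET replicate 2 stood apart, with the lowest total, the fewest genes detected and a TMM scaling factor of 0.45 against 0.76 to 1.67 in the other libraries. All libraries were unlike each other, however. Pearson correlations of log2 CPM (log2 of read counts scaled to library size) were 0.289 to 0.327 within WT and 0.358 to 0.441 within Foxm1 HET. Between genotypes they were 0.306 to 0.443, so the ranges overlapped. Values by library are given below in the order of replicates 1, 2 and 3 of a genotype. The WT libraries held 1182, 2615 and 2942 reads of Foxm1 itself, and the Foxm1 HET libraries 659, 5 and 742. Every Foxm1 HET library was therefore below every WT library for the targeted gene, although the estimated difference of -3.30 on the log2 scale (standard error 2.33) had an adjusted p of 0.961 by edgeR's quasi-likelihood test. All 15 of the LT-HSC markers listed were detected, with a summed level of 3590 to 8190 CPM (read counts scaled to library size) in WT and 4610 to 6150 CPM in Foxm1 HET. Markers of other cells were present as well. The 10 neutrophil markers summed to 5260 to 15800 CPM in WT and 1580 to 8440 CPM in Foxm1 HET. The 10 macrophage markers summed to 1740 to 3910 and 616 to 3990 CPM, with C1qa, C1qb and Cd14 at 0 in every library. Among the macrophage markers, Lyz2 averaged 10.865 and Cd68 2.696 on the log2 CPM scale, and among the neutrophil markers Mpo averaged 10.641 and Prtn3 2.767. The markers therefore contributed unevenly to both sums. Erythroid markers, 8 of 9 detected with Hba-a1 at 0, summed to 176 to 1190 and 260 to 758 CPM, and the 3 progenitor markers (Cd48, Flt3 and Cd34) to 19.4 to 1370 and 46.8 to 748 CPM. T cell markers, 2 of 5 detected with Cd3d, Cd3g and Cd2 at 0, summed to 0.249 to 124 and 0.206 to 30.6 CPM. Among the single markers of these lists, Gata2 (LT-HSC) and S100a9 (neutrophil) were lower in Foxm1 HET without overlap between genotypes. Prtn3 (neutrophil) and Car1 (erythroid) were higher without overlap. Of all genes tested, 4.55% were lower and 4.12% higher without overlap.

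In LT-HSCs of both genotypes Egr1 was among the most abundant transcripts, and the other 7 genes were lower. Apart from Sik1, those genes were also more uneven between libraries, as less abundant genes mostly were in these data. No gene of the 8 differed between WT and Foxm1 HET by edgeR's test. Ier3, which encodes an early-response protein that acts on cell survival, was the only gene of the 8 whose 3 Foxm1 HET libraries all lay above the 3 WT libraries, and the smallest gap between the genotypes was narrow. Egr2 had the largest estimated decrease, which rested on 1 WT library. In bulk samples such as these, fewer cells that use a gene and less RNA of that gene per cell cannot be told apart.

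**Figure D1:**
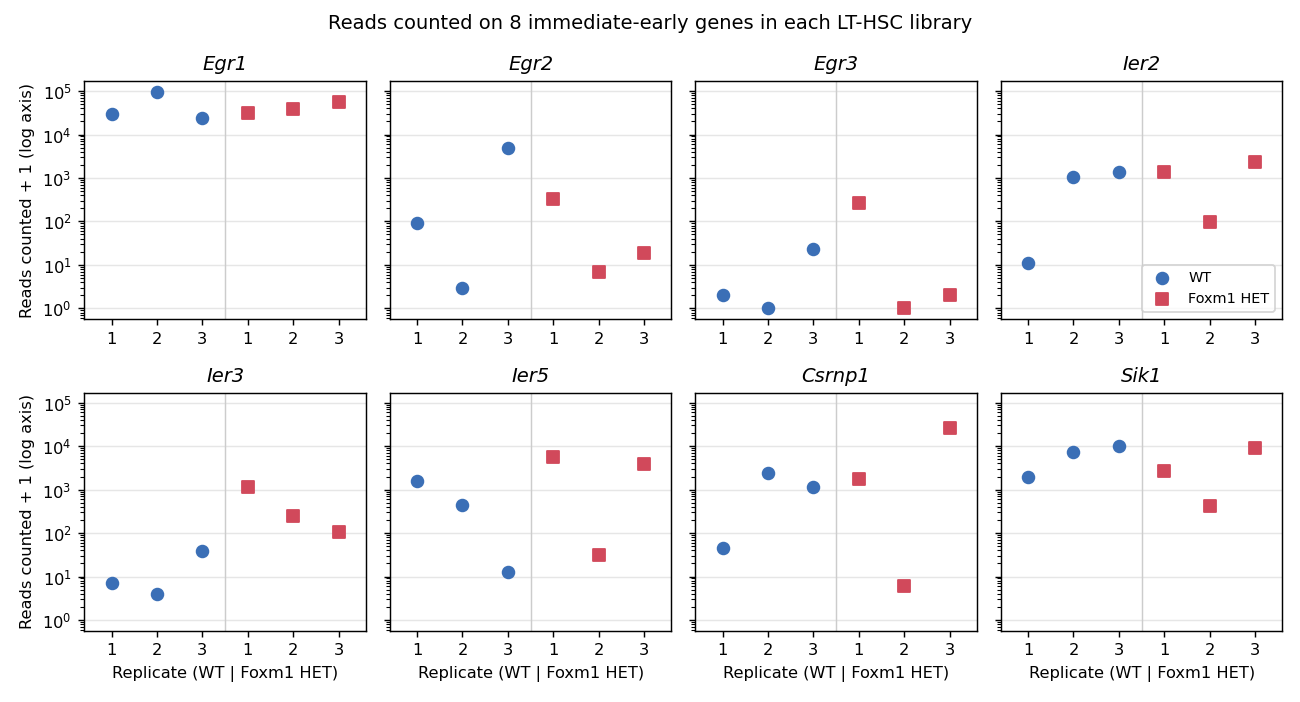
Reads counted plus 1 (log axis) for each of the 8 genes in WT replicates 1 to 3 (blue circles) and Foxm1 HET replicates 1 to 3 (red squares), 1 point per library. Egr1 lies between 23817 and 95788 reads in all 6 libraries, while Egr2 runs from 2 to 4963 reads within WT alone and Ier3 is the gene whose red squares all sit above its blue circles.

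Egr1 encodes the first described zinc finger factor of the Egr family and lies on chromosome 18. The WT libraries held 29145, 95788 and 23817 Egr1 reads, and the Foxm1 HET libraries 32017, 39147 and 57182. In reads, the highest and the lowest library were both WT. On the log2 CPM scale they were both Foxm1 HET, replicate 2 at 12.56 and replicate 1 at 9.72. WT ran from 10.36 to 12.05 on that scale, so the genotypes overlapped. Per length, Egr1 reached 360 to 1350 RPKM (read counts scaled to exon length and library total) and ranked between 15 and 96 among the 27179 genes. On the log2 CPM scale WT averaged 10.98 ± 0.93 (SD, n = 3) and Foxm1 HET 10.90 ± 1.48 (SD, n = 3). Egr1 had a log2 fold change, Foxm1 HET minus WT, of 0.23 (standard error 1.19, 95% confidence interval -2.10 to 2.55, adjusted p = 0.998 by edgeR). The interval spans changes of more than 2 log2 units either way, and the sign of the estimate turned to -1.05 without Foxm1 HET replicate 2. A two-sided exact permutation test gave p = 0.9. The standard deviation of Egr1 within genotypes was 1.24, smaller than that of 91.6% of genes tested, but 21 of the 29 genes within 1 log2 unit of its mean level had a smaller one.

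Egr2, the family member best known for the myelination program of Schwann cells and for tolerance in T cells, lies on chromosome 10 of GRCm38 from 67537869 to 67542188. The WT libraries held 92, 2 and 4963 Egr2 reads, and the Foxm1 HET libraries 330, 6 and 18. WT replicate 3 alone stood high, and WT replicate 2 was the lowest of all 6 libraries. Within WT, log2 CPM ran over a range of 10.83, against 4.09 within Foxm1 HET. The estimate for Egr2 was -4.97 on the log2 scale (standard error 2.63, 95% confidence interval -10.12 to 0.19, unadjusted p = 0.0591, adjusted p = 0.859 by edgeR), and it became 0.62 without WT replicate 3. The two-sided exact permutation test on log2 CPM gave p = 0.7. The window printed for Egr2, with its CArG box and both TGACG matches, is that of a gene whose level differed between libraries of the same genotype more than between genotypes.

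Egr3, which overlaps Egr2 in function in lymphocytes, lies on chromosome 14 from 70077445 to 70080157. Reads of Egr3 numbered 1, 0 and 22 over the WT libraries and 263, 0 and 1 over the Foxm1 HET libraries. Foxm1 HET replicate 1 held nearly all of them, and both genotypes had a library at 0, where a count of 0 allows up to 3 reads by counting error. Egr3 was left out of the tests by the filter on low counts. A fit without that filter estimated the Egr3 difference at 2.38 on the log2 scale (standard error 4.02, adjusted p = 0.838 by edgeR), a value that depends on how libraries at 0 are handled.

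Ier2 encodes a nuclear protein linked to transcription and cell motility and lies on chromosome 8 from 84661331 to 84662852. Ier2 reads numbered 10, 1067 and 1371 over the WT libraries and 1399, 94 and 2279 over the Foxm1 HET libraries. WT replicate 1 was low by far, and the other 2 WT libraries lay within the Foxm1 HET range in reads. The fitted value for Ier2 was -0.34 on the log2 scale (standard error 2.39, 95% confidence interval -5.02 to 4.35, adjusted p = 0.998 by edgeR). Log2 CPM averaged 3.69 ± 4.01 (SD, n = 3) among WT libraries against 4.95 ± 0.98 (SD, n = 3) among Foxm1 HET libraries, so the difference of the means, 1.25, had the opposite sign to the fitted fold change. The two-sided exact permutation test gave p = 0.9.

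Ier3 lies on chromosome 17 of GRCm38 from 35821713 to 35822911. The WT libraries held 6, 3 and 37 Ier3 reads, and the Foxm1 HET libraries 1152, 248 and 107. On the log2 CPM scale these came to -1.50, -2.22 and 1.26 for WT against 4.92, 5.26 and 1.40 for Foxm1 HET. Foxm1 HET replicates 1 and 2 were well above WT, whereas Foxm1 HET replicate 3 exceeded WT replicate 3 only slightly. Ier3 had an estimated increase of 4.71 on the log2 scale (standard error 3.33, 95% confidence interval -1.83 to 11.24, unadjusted p = 0.158, adjusted p = 0.962 by edgeR). The two-sided exact permutation test gave p = 0.1, the smallest that 3 libraries against 3 allow. DESeq2 gave an adjusted p of 0.0816 for Ier3, above the threshold of 0.05.

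The direction of the Ier3 difference was the same in all 14 alternatives in which it was fitted, with estimates from 2.94 in the normalized table to 6.81 without WT replicate 3. Genotypes stayed without overlap when any of the 6 libraries was left out, comparisons in which 7.36% to 15.6% of all genes tested were higher without overlap. At a fixed scaling, removing a library cannot make separate genotypes overlap, so these fits are no independent check of Ier3. The Ier3 genotypes overlapped under RLE scaling, with DESeq2's size factors and in the deposited normalized table. There, WT replicate 3 had a value of 3.03 and Foxm1 HET replicate 3 a value of 1.67 on the log2 scale. Among the cell type markers, the summed levels that did not overlap between genotypes were those of megakaryocytes, of endothelial and stromal cells and of B cells. These sums are in CPM without the TMM factors. Megakaryocyte markers (6 of 6 detected) were at 7.47 to 11.4 CPM in WT and 50.5 to 173 CPM in Foxm1 HET. Endothelial and stromal markers (4 of 6 detected, Lepr and Col1a1 at 0) were at 0.0465 to 17.1 and 28.3 to 37.3 CPM. B cell markers (3 of 8 detected) moved the other way, from 12.6 to 200 CPM in WT to 0 to 6.68 CPM in Foxm1 HET, with Cd79a, Ms4a1, Ebf1, Vpreb1 and Igll1 at 0. In each of these lists only 1 gene passed the filter on low counts. For megakaryocytes it was Itgb3, higher without overlap, and in the other lists the gene overlapped between genotypes. The part of these cell types in the Ier3 values was not tested.

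Ier5, whose protein acts with the phosphatase PP2A on the heat-shock factor HSF1, lies on chromosome 1 from 155096367 to 155099636. Among Ier5 reads, the WT libraries held 1568, 444 and 12 and the Foxm1 HET libraries 5712, 30 and 3962. Foxm1 HET replicates 1 and 3 were the highest libraries, and Foxm1 HET replicate 2 fell within the WT range. For Ier5 the fitted difference was 1.45 on the log2 scale (standard error 2.24, 95% confidence interval -2.95 to 5.85, adjusted p = 0.998 by edgeR), and the two-sided exact permutation test gave p = 0.5. Without Foxm1 HET replicate 2, the library that stood apart, the fold change was 2.06 and the genotypes no longer overlapped, as for 15.6% of all genes tested in that comparison of 3 libraries with 2.

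Csrnp1, also called Axud1, encodes a nuclear protein induced by axin and lies on chromosome 9 from 119971166 to 119984658. Csrnp1 reads numbered 45, 2420 and 1170 over the WT libraries and 1744, 5 and 25966 over the Foxm1 HET libraries. Foxm1 HET thus held both the highest and the lowest library, and log2 CPM ranged over 9.51 within that genotype. In Foxm1 HET replicate 3 Csrnp1 reached 348 RPKM and rank 55 among all genes, against rank 6825 in WT replicate 1. The fitted difference of Csrnp1 on the log2 scale was 1.87 (standard error 1.84, 95% confidence interval -1.74 to 5.49, adjusted p = 0.998 by edgeR) with all libraries and -1.26 without Foxm1 HET replicate 3. The exact permutation test, two-sided, gave p = 1.0. Of the 50-base stretches of Csrnp1 transcripts, 3.31% also occur in another gene, where single 50-base reads could not be assigned, and for the other 7 genes none do.

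Sik1 lies on chromosome 17 from 31844250 to 31855792, and its reads numbered 1904, 7213 and 10073 over the WT libraries and 2651, 416 and 9044 over the Foxm1 HET libraries. On the log2 CPM scale WT replicate 1, at 6.43, lay below Foxm1 HET replicate 3, at 7.76, so the genotypes overlapped. Foxm1 HET replicates 1 and 2, at 6.12 and 6.01, were lower than every WT library on that scale. WT averaged 8.02 ± 1.46 log2 CPM (SD, n = 3), and Foxm1 HET averaged 6.63 ± 0.98 log2 CPM (SD, n = 3). The fitted value for Sik1 was -1.56 on the log2 scale (standard error 1.67, 95% confidence interval -4.84 to 1.71, adjusted p = 0.998 by edgeR), and the two-sided exact permutation test gave p = 0.2. The estimate kept its sign in all 15 alternatives. Without WT replicate 1, or without Foxm1 HET replicate 3, every remaining Foxm1 HET library was below every WT library in log2 CPM. The same held for 8.84% and 7.66% of all genes tested in those comparisons.

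**Figure D2:**
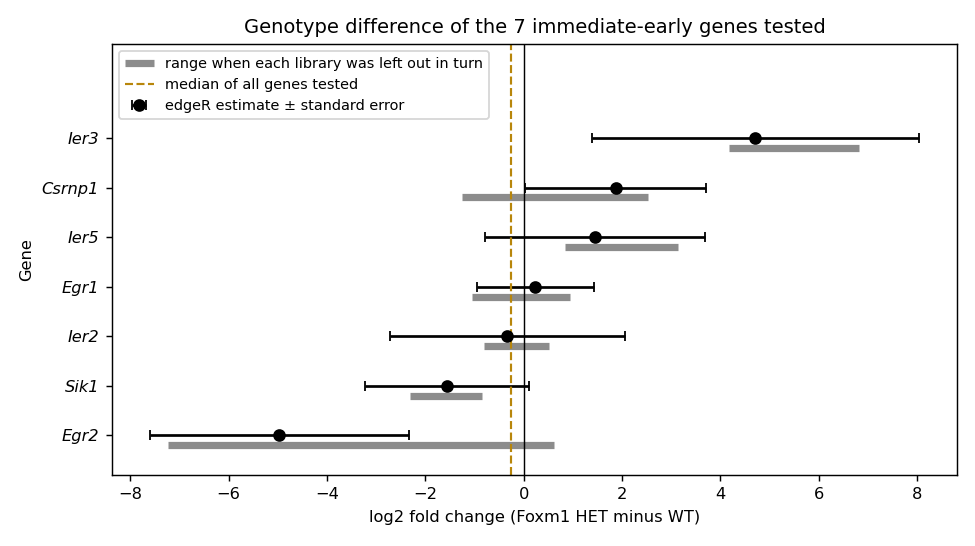
The log2 fold change (Foxm1 HET minus WT) of the 7 genes tested, with its standard error from edgeR (black) and the range of estimates when each of the 6 libraries was left out in turn (grey). The dashed line is the median of all 8195 genes tested, -0.26. Ier3, Ier5 and Sik1 keep their side of 0 over the whole grey range, whereas Egr1, Egr2, Ier2 and Csrnp1 cross it.

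Of the 7 genes that passed the filter on low counts, 4 had a higher and 3 a lower estimate in Foxm1 HET. None passed an adjusted p of 0.05 by edgeR, a threshold passed by 0.329% of the 8195 genes tested, and none had an unadjusted p under 0.05, as did 6.03% of genes tested. DESeq2, which gave an adjusted p for 5 of the 7, called none of them and called 3.13% of the genes for which it gave an adjusted p. Ier3 was 1 gene of 7 that was higher without overlap, as were 4.12% of all genes tested, and 0 of 7 were lower without overlap, as were 4.55%. The median log2 fold change of the 7 genes was 0.23, and that of all genes tested was -0.26. The median of the 7 genes depended on single libraries. It was 0.09 with Foxm1 HET replicate 2 left out and -0.71 with Foxm1 HET replicate 3 left out, each being the Ier2 estimate. Egr3 also passed the filter in those 2 fits, and with Egr3 counted the medians were 1.08 and -0.10. Without Foxm1 HET replicate 2 the estimates were -1.05 for Egr1, -4.44 for Egr2, 0.09 for Ier2, 4.26 for Ier3, 2.06 for Ier5, 2.49 for Csrnp1 and -1.22 for Sik1. In that fit too, no gene of the 8 had an adjusted p under 0.05 by edgeR.

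The order of the levels per length set Egr1 apart from the rest. Its median over the 6 libraries was 597 RPKM, followed by Sik1 at 46.3, Ier2 at 33.3, Csrnp1 at 21.3, Ier5 at 14.9, Ier3 at 2.69, Egr2 at 0.89 and Egr3 at 0.0313 RPKM. The lowest library of Egr1, at 360 RPKM, was above the highest of any other member, which was Csrnp1 at 348 RPKM in Foxm1 HET replicate 3. The neighbours below Egr1 in this order had overlapping ranges, from 6.33 to 104 RPKM for Sik1, 0.327 to 58.0 for Ier2, 0.119 to 348 for Csrnp1, 0.17 to 68.6 for Ier5, 0.12 to 41.5 for Ier3, 0.0293 to 77.8 for Egr2 and 0 to 7.30 for Egr3. Together the 8 genes took 0.163% to 0.465% of the reads of a library, and Egr1 made up 57.4% to 98.0% of that sum. Its share was highest in Foxm1 HET replicate 2, where Ier5, Csrnp1 and Sik1 had 30, 5 and 416 reads.

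Libraries of the same genotype differed widely for most of these genes. In WT, log2 CPM spread over more than 5 units in 4 of the 7 genes, Egr2, Ier2, Ier5 and Csrnp1, as it did in 56.1% of all genes tested. In Foxm1 HET it did so in 1, Csrnp1, and in 54.0% of all genes. The median standard deviation within genotypes was 2.92 for the 7 genes and 3.13 for all genes tested. Egr1 and Sik1 were the steadiest of the 7, each with a standard deviation of 1.24, and Egr2 and Csrnp1 the most variable, at 4.13 and 4.04. Spread depended on level, with a median of 1.02 for genes within 1 log2 unit of Egr1 and 3.80 for those near Egr2. Of genes that near in level, 117 of 2323 had a smaller standard deviation than Ier3 and 306 of 814 than Sik1. For Ier2 and Ier5 it was 888 of 1871 and 981 of 1846. For Egr2 and Csrnp1 it was 1564 of 2325 and 1631 of 1784. The high library was not the same from gene to gene: it was WT replicate 2 for Egr1, WT replicate 3 for Egr2, Foxm1 HET replicate 1 for Ier3 and Ier5 and Foxm1 HET replicate 3 for Ier2 and Csrnp1, by RPKM.

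**Figure D3:**
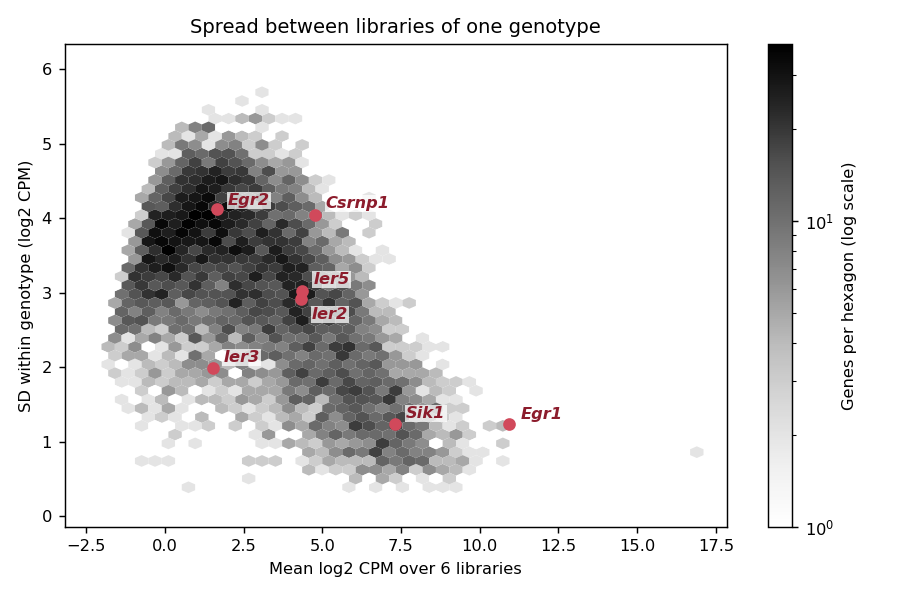
The standard deviation of log2 CPM within genotypes (vertical axis) against mean log2 CPM over 6 libraries (horizontal axis) for all 8195 genes tested, shaded by the number of genes per hexagon, with the 7 immediate-early genes in red. Egr1 and Sik1, both at 1.24, lie below most genes, in a part of the plot where abundant genes vary little, while Egr2 at 4.13 and Csrnp1 at 4.04 lie in the upper part of the cloud.

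The genes whose pattern over the 6 libraries was most like that of Egr1, among 6721 genes with a mean of at least 10 CPM, were Cic (Pearson r = 0.979), Bbx (0.970) and Arf4 (0.966). Those most like Ier3 included Arhgef3 (0.984) and AI662270 (0.963). These values describe 6 libraries that share their depth and scaling between genes, and 0.610% of the genes compared exceeded 0.9 with Egr1 and 0.387% with Ier3. Arhgef3 reads numbered 19, 5 and 393 over the WT libraries and 9165, 2161 and 276 over the Foxm1 HET libraries, with the highest and lowest read counts of each genotype in the same libraries as for Ier3. Arf4 and AI662270 share 13.3% and 14.0% of their 50-base stretches with other genes, which leaves their counts uncertain.

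The closest relatives of the 8 genes ranged from absent to well detected. Egr4, the remaining Egr family gene, had 0 reads in all 6 libraries. Nab1 and Nab2 encode corepressors that bind Egr proteins and damp their activity. Nab1 reads numbered 1855, 864 and 1709 over the WT libraries and 1762, 12 and 179 over the Foxm1 HET libraries, a fitted value of -2.13 on the log2 scale (standard error 2.40, adjusted p = 0.998 by edgeR). Nab2 shares 34.9% of its 50-base stretches with another gene, so its log2 fold change of 1.70 (standard error 3.04) is uncertain. Of Egr1 to Egr4, Nab1 and Nab2, 4 were tested, and none had an unadjusted p under 0.05 by edgeR or a genotype difference without overlap. Over all genes tested these shares were 6.03% and 8.68%.

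Csrnp2 and Csrnp3, the relatives of Csrnp1, were near 0 in WT. Csrnp2 reads numbered 2, 0 and 0 over the WT libraries and 417, 1 and 228 over the Foxm1 HET libraries. Csrnp3 reads numbered 1, 0 and 0 over the WT libraries and 234, 1 and 0 over the Foxm1 HET libraries. Neither passed the filter on low counts, and in each the lowest Foxm1 HET library was at or below the highest WT library. Ier5l, the relative of Ier5, had 65 reads in Foxm1 HET replicate 2 and 0 in every other library. Sik2 and Sik3, the other salt-inducible kinases, had log2 fold changes of 1.34 (standard error 2.93) and -0.68 (standard error 1.80), both with an adjusted p of 0.998 by edgeR. Sik3 reads numbered 7336, 2961 and 836 over the WT libraries and 9183, 89 and 2746 over the Foxm1 HET libraries. Of the 10 Ier, Csrnp and Sik genes listed, which include Ier2, Ier3, Ier5, Csrnp1 and Sik1, 7 were tested, of which 4 were higher and 3 lower. None of the 7 had an unadjusted p under 0.05 by edgeR, as did 6.03% of all genes tested. Only Ier3 did not overlap between genotypes, 1 of 7, against 8.68% of all genes tested.

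Beside the Egr and Ier genes, a list of 44 other immediate-early genes was read in the same way, of which 41 had at least 1 read and 36 were tested. Of these, 17 had a higher and 19 a lower estimate, the median log2 fold change was -0.09, and none passed an adjusted p of 0.05 by edgeR. An unadjusted p under 0.05 was reached by 2, both lower, Nr4a2 (an orphan nuclear receptor) and Klf4 (a zinc finger factor), against 6.03% of all genes tested. The WT libraries held 19667, 19273 and 7117 Nr4a2 reads, and the Foxm1 HET libraries 444, 90 and 948, for an estimate of -5.50 on the log2 scale (standard error 1.85, adjusted p = 0.260 by edgeR and 0.00823 by DESeq2). It was the 1 gene of this list called by DESeq2, which called 3.13% of all genes for which it gave an adjusted p. DESeq2 gave none for some of the 36 genes, among them Nr4a1, Junb and Dusp1. The Egr1 libraries overlapped between genotypes, whereas the lowest WT library of Nr4a2 held several times the reads of the highest Foxm1 HET library. The difference between the genotype effects on Nr4a2 and Egr1 was not tested.

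Klf4 reads numbered 5126, 10478 and 1536 over the WT libraries and 731, 185 and 11 over the Foxm1 HET libraries, an estimate of -4.04 on the log2 scale (standard error 2.02, adjusted p = 0.806 by edgeR). Atf3, a stress-induced bZIP factor, went from 6104, 6228 and 4524 reads over the WT libraries to 1436, 157 and 34 over the Foxm1 HET libraries, an estimate of -3.73 (standard error 1.97, adjusted p = 0.854 by edgeR). Nr4a2, Klf4 and Atf3 were lower without overlap under each of 4 other scalings or tables. Ppp1r15a and Nfkbia were also lower without overlap, and Trib1 and Sgk1 higher, and these 4 were named after their values were seen. Each of them overlapped under at least 1 of the 4 other scalings or tables. In all, 7 of the 36 genes, 19.4%, did not overlap, against 8.68% of all genes tested. The list was chosen with earlier results of these data known, so its larger share may partly reflect that choice. It includes Nr4a2 and Klf4, which the paper describes as downregulated in Foxm1 heterozygous HSCs. Whether the list exceeds the background apart from that choice was not tested. Dusp6, an ERK phosphatase, had the fourth smallest p of this list and the largest estimated increase, 5.67 (standard error 3.57, adjusted p = 0.941 by edgeR), which rested on 1876 reads in Foxm1 HET replicate 1 against 3 and 78 in replicates 2 and 3 and 22, 0 and 0 in WT. Part of its exon sequence, 9.47%, also belongs to another gene.

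**Figure D4:**
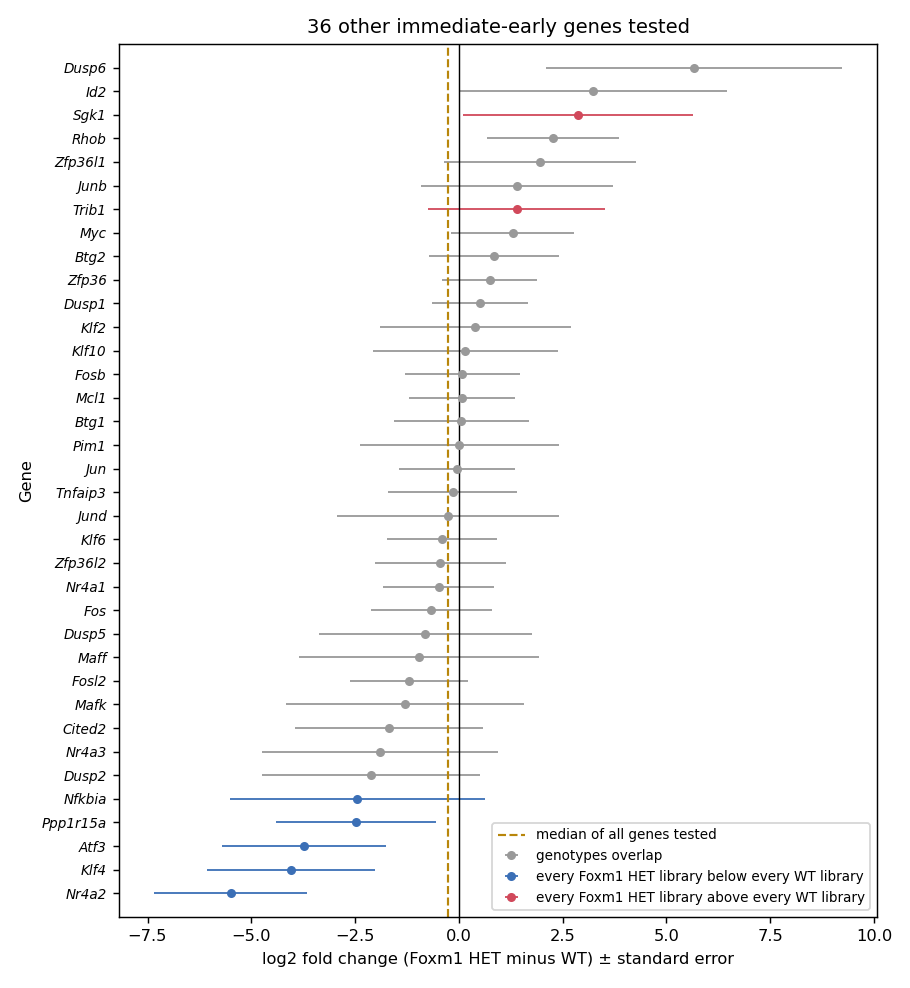
The log2 fold change (Foxm1 HET minus WT) with its standard error from edgeR for the 36 other immediate-early genes tested, in order of size. Blue marks the 5 genes lower without overlap, red the 2 higher without overlap and grey the rest, and the dashed line is the median of all genes tested, -0.26. The estimates lie on both sides of that median, from -5.50 for Nr4a2 to 5.67 for Dusp6.

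The regulators upstream of the Egr and Ier genes were given by a list of 27 genes of the SRF, ERK and CREB pathways, all detected and 25 tested. Of the 25 tested, 11 had a higher and 14 a lower estimate, with a median log2 fold change of -0.18, and none passed an adjusted p of 0.05 by edgeR. Hdac5, of the class IIa deacetylases that salt-inducible kinases phosphorylate, was the only 1 with an unadjusted p under 0.05 and the only 1 without overlap, and it was the 1 called by DESeq2. Over all genes tested, 6.03% had an unadjusted p under 0.05 by edgeR and 8.68% did not overlap, against 1 of 25 here. DESeq2 called 3.13% of the genes for which it gave an adjusted p, and it gave none for some of these 25 genes. Hdac5 reads numbered 1378, 8236 and 217 over the WT libraries and 173, 4 and 9 over the Foxm1 HET libraries. The Hdac5 estimate was -6.34 on the log2 scale (standard error 2.60, unadjusted p = 0.0149, adjusted p = 0.560 by edgeR and 0.0105 by DESeq2). Among the next by p were the kinase Rps6ka3 with a log2 fold change of -3.36 (standard error 1.97) and the SRF partner Elk1 with 4.44 (standard error 2.84), with adjusted p of 0.923 and 0.941 by edgeR. Elk1 reads numbered 195, 3 and 3 over the WT libraries and 5367, 2 and 2410 over the Foxm1 HET libraries, so its genotypes overlapped through Foxm1 HET replicate 2, as for Ier5.

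Heat-shock genes, which like the immediate-early genes respond to stress and handling of cells, were listed as 10 genes, of which 8 were tested. Of these, 1 had a higher and 7 a lower estimate, with a median log2 fold change of -0.59, and none had an unadjusted p under 0.05 by edgeR, an adjusted p under 0.05 by DESeq2 or libraries without overlap. Hspe1, Hsph1, Dnaja1 and Dnajb1 had the smallest p, with log2 fold changes of -4.41, -2.19, -1.19 and -0.82 and adjusted p of 0.970 to 0.998 by edgeR. Hspe1 and Dnaja1 share 22.8% and 20.6% of their 50-base stretches with other genes. The summed level of the 10 genes was 1630 to 2590 CPM in WT and 1270 to 2610 CPM in Foxm1 HET, and its part in the levels of the Egr and Ier genes was not tested.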

How the data were processed

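LT-HSC libraries from 3 WT and 3 Foxm1 HET mice were grouped by their genotype labels. The authors aligned single 50-base reads to GRCm38 with STAR 2.7.2b and deposited raw counts per gene for 27179 genes; the counting program, its use of strand and its treatment of multi-mapping reads are not given in the sources used here, and the labels and the paper name different library kits. A second table that the authors deposited, with normalized log2 values of 12179 genes, served as an alternative. Every sample column was matched to a library by name. Symbols came from that table and RefSeq for 94.1% of identifiers.

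Counts were tested with edgeR 4.0.16 in R 4.3.3 (default filter, TMM, quasi-likelihood test, genotype as the only term) with Benjamini-Hochberg adjustment over 8195 genes. Log2 CPM used a prior count of 2. Genes without overlap are those whose Foxm1 HET libraries all lie below, or all above, the WT libraries. RPKM used the exon lengths and total counts. Shared 50-base stretches were counted over GENCODE M21 transcripts. Alternatives were other scalings, filters, DESeq2 1.42.0, limma-voom (limma 3.58.1), the normalized table, a replicate block and each library left out.

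Besides the 8 genes, the 4 genes of smallest p in each list and the 3 most alike to Egr1 and to Ier3 were named, of which 2 are not reported here but stay in the counts. Members and lists were chosen with earlier results of these data known. The paper describes the animals as 3 pairs, but no source used here ties a library to an animal or says that the replicate numbers mark these pairs, so p-values measure the spread between these libraries, which may be partly technical. Counting intervals and limits cover counting error only.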

Additional observations from a re-analysis of the deposited data

How the results depend on the processing

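Genes past an adjusted p of 0.05, 27 in edgeR, numbered 10 with RLE scaling, 43 with upper-quartile scaling, 7 with library size alone, 0 with at least 10 counts in every library (157 at an unadjusted p under 0.05), 194 with DESeq2, 4 with limma-voom, 0 in the normalized table by limma (576 unadjusted) and 0 to 29 with a library left out (433 to 626 unadjusted), being 0 or 1 without any WT library or Foxm1 HET replicate 2. With the replicate number as a block it was 0 (108 unadjusted). Libraries with the same number did not deviate together (correlations 0.0162, -0.0253 and -0.0687), so the numbers were not taken to pair them, and under that replicate block Egr1 was -0.09, Egr2 0.28 and Ier2 0.39 on the log2 scale.

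The 1 gene of the 8 higher without overlap, Ier3, became 0 with RLE scaling, with at least 10 counts in every library (where Ier3 was not tested), with DESeq2 and in the normalized table, and the count was 1 to 2 with a library left out. The count of those lower without overlap was 0 to 1 with a library left out. Egr1 was -0.12 with library size alone, -0.02 with at least 10 counts and -0.72 with limma-voom, and -1.05 to 0.95 with a library left out. Ier2 was 0.16, 0.45, 0.10, 1.70 and 1.58 with upper-quartile scaling, library size alone, at least 10 counts, limma-voom and the normalized table, and -0.80 to 0.52 with a library left out. Egr3 was -0.03 in the normalized table. With a library left out Egr2 ran from -7.24 to 0.62 and Csrnp1 from -1.26 to 2.53. Of 107 alternative values for the 8 genes, 88 kept their sign and their side of the threshold, 19 reversed and 0 passed an adjusted p of 0.05; the cause of the reversals was not tested. The median of the genes tested among the 8, 0.23, was 1.01 with RLE scaling and with DESeq2 and 1.62 with limma-voom. It was -0.10 to 1.08 with a library left out (1.06 without WT replicate 2). Without WT replicate 1 or 2, or Foxm1 HET replicate 2 or 3, Egr3 was tested too, so those medians are of 8 genes. The median of all genes moved between -0.53 and 0.26 over the fits.

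Added after the data were seen, the count of other immediate-early genes higher without overlap, 2, was 1 with RLE scaling, 4 with upper-quartile scaling, 5 in the normalized table and 2 (without WT replicate 3) to 8 (without WT replicate 1) with a library left out, all 5 libraries other than WT replicate 3 giving 4 or more. Over all genes these shares rose from 4.12% to between 7.36% and 15.6%. The 5 lower were 4 with RLE scaling, upper-quartile scaling and the normalized table and 5 to 10 with a library left out, the 10 without Foxm1 HET replicate 2. Over all genes these shares rose from 4.55% to between 6.01% and 9.60%. Egr3, Egr4 and Ier5l had 0 reads in some or all libraries, each of which allows up to 3 reads by counting error.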
